A study of Mus musculus with 2 samples.

Results

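Spi1, Cebpa, Pax5 and Ebf1 encode regulators of the myeloid and B cell lineages, and the TCF1 intervals listed around these 4 genes are described here. Members were chosen by position alone, as every listed interval that overlapped one of 4 fixed windows of the mm9 genome. No score entered this step, but the windows themselves were chosen with earlier results of these data known. The windows were chr2:90870000-91010000 for Spi1 (140 kb), chr7:35850000-35970000 for Cebpa (120 kb), chr4:44490000-44780000 for Pax5 (290 kb) and chr11:44380000-44880000 for Ebf1 (500 kb). Their placement on the genes was taken as given, since no mm9 annotation was used here to check it. They held 77 of the 104683 intervals in the list, with 24 at Spi1, 11 at Cebpa, 32 at Pax5 and 10 at Ebf1. The list came from 1 chromatin immunoprecipitation library made with an anti-TCF1 antibody (SantaCruz, sc-13025) from γδ T cells sorted from the thymus as CD24+ and CFPlo/-. The mice were C57BL/6 with the genotype TCRbeta KO.Sox13tg+.Sox13 ECFP KI/+, so every cell studied lacked the TCRβ gene, carried a Sox13 transgene and had ECFP placed into one Sox13 allele. An input library of the same cells was not analysed here. The sources used here do not give the promoter that drives the transgene, the age of the mice or how many were pooled. There was no replicate and no second condition, the number of reads is unknown, and no RNA was measured, so no statement on the activity of these genes can be made.

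TCF1 is the product of Tcf7, a DNA-binding protein of the HMG-box class that is switched on early in thymic progenitors and helps to set up the T cell program. Progenitors that enter the thymus still hold the potential for other blood lineages, and the genes that drive those lineages are shut down as cells commit to the T lineage. PU.1, the product of Spi1, is an Ets-family factor of macrophages, granulocytes and B cells that is also present in the earliest thymic progenitors. C/EBPα, the product of Cebpa, is a basic leucine zipper factor required for granulocyte formation. EBF1 and PAX5 act in sequence in B cell development, EBF1 in specifying the lineage and PAX5 in holding cells committed to it.

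The RefSeq promoters of the members are shown because the consensus of TCF1 and other TCF/LEF factors begins with CTTTG. The searched words were CTTTGA and CTTTGT on both strands, and CTTTGT is also part of the consensus of SOX factors. A match to either word does not show which factor binds there. Each promoter runs from 250 bases before to 50 bases after a gene start, and capitals mark a match. The table covered 3 of the 4 genes, with 2 promoters for Ebf1. Its build was GRCm38.p6, so these positions cannot be set beside the mm9 intervals, and whether an interval covers a promoter was not analysed here. The positions were chr7:35119043-35119342 (+ strand) for Cebpa, chr4:44710645-44710944 (- strand) for Pax5, and chr11:44617850-44618149 and chr11:44619978-44620277 (both + strand) for Ebf1.
Cebpa: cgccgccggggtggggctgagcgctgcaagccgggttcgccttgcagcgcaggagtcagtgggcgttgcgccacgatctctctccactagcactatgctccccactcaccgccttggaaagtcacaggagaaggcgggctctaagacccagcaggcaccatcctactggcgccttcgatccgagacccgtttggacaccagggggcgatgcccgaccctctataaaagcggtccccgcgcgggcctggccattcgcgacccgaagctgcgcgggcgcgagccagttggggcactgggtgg
Pax5: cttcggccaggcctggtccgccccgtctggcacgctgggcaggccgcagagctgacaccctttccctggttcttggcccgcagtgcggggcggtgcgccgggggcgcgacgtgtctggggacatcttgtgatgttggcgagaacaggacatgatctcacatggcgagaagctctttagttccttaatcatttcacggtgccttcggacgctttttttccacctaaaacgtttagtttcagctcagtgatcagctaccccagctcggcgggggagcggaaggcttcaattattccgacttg
Ebf1 promoter 1: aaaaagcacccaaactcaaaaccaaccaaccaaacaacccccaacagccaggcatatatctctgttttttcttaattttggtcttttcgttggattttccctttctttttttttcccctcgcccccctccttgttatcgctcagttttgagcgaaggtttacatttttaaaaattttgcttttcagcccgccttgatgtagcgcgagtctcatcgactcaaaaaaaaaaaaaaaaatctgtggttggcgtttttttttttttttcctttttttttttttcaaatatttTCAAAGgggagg
Ebf1 promoter 2: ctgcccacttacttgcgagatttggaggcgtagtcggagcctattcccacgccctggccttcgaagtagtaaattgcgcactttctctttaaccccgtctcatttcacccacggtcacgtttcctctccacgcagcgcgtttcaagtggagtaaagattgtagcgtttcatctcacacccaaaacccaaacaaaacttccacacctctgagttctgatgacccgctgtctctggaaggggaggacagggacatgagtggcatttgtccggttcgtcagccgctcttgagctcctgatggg
Promoter 1 of Ebf1 held 1 match, the reverse complement TCAAAG, which begins 38 bases after the gene start. The Cebpa, Pax5 and second Ebf1 sequences held none. Of 32851 promoters of this length, 31.2% held at least 1 of the words (CTTTGA in 16.0%, CTTTGT in 18.7%), so 1 match in 4 promoters is a description only. The share of G and C was 67.3% in the Cebpa promoter, 59.0% in Pax5, 36.7% in Ebf1 promoter 1 and 53.0% in Ebf1 promoter 2, against a median of 52.7% over all promoters.

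Intervals were densest at Spi1, followed by Pax5 and Cebpa, and least dense at Ebf1. The Spi1 window held 17.1 intervals per 100 kb (95% Poisson interval 11.0 to 25.5), Pax5 11.0 (7.55 to 15.6), Cebpa 9.17 (4.58 to 16.4) and Ebf1 2.0 (0.959 to 3.68). The intervals of confidence cover counting error only. Among the upper 3 loci counting error left the order by density unresolved, since each ratio had a wide range that included 1. The ratio of Spi1 to Pax5 was 1.55 (0.876 to 2.72), that of Spi1 to Cebpa 1.87 (0.882 to 4.23) and that of Pax5 to Cebpa 1.20 (0.591 to 2.65). Each of these 3 loci was denser than Ebf1, by 8.57 times for Spi1 (3.95 to 20.1), 5.52 times for Pax5 (2.65 to 12.6) and 4.58 times for Cebpa (1.77 to 12.0). These ranges treat listed intervals as independent, and close neighbours make them too narrow. With each density divided by that of its chromosome, Spi1 to Pax5 was 1.82, Spi1 to Cebpa 2.09 and Pax5 to Cebpa 1.15. Against Ebf1 the divided ratios were 12.6 for Spi1, 6.91 for Pax5 and 6.00 for Cebpa. No range was computed for the divided ratios.

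**Figure D1:**
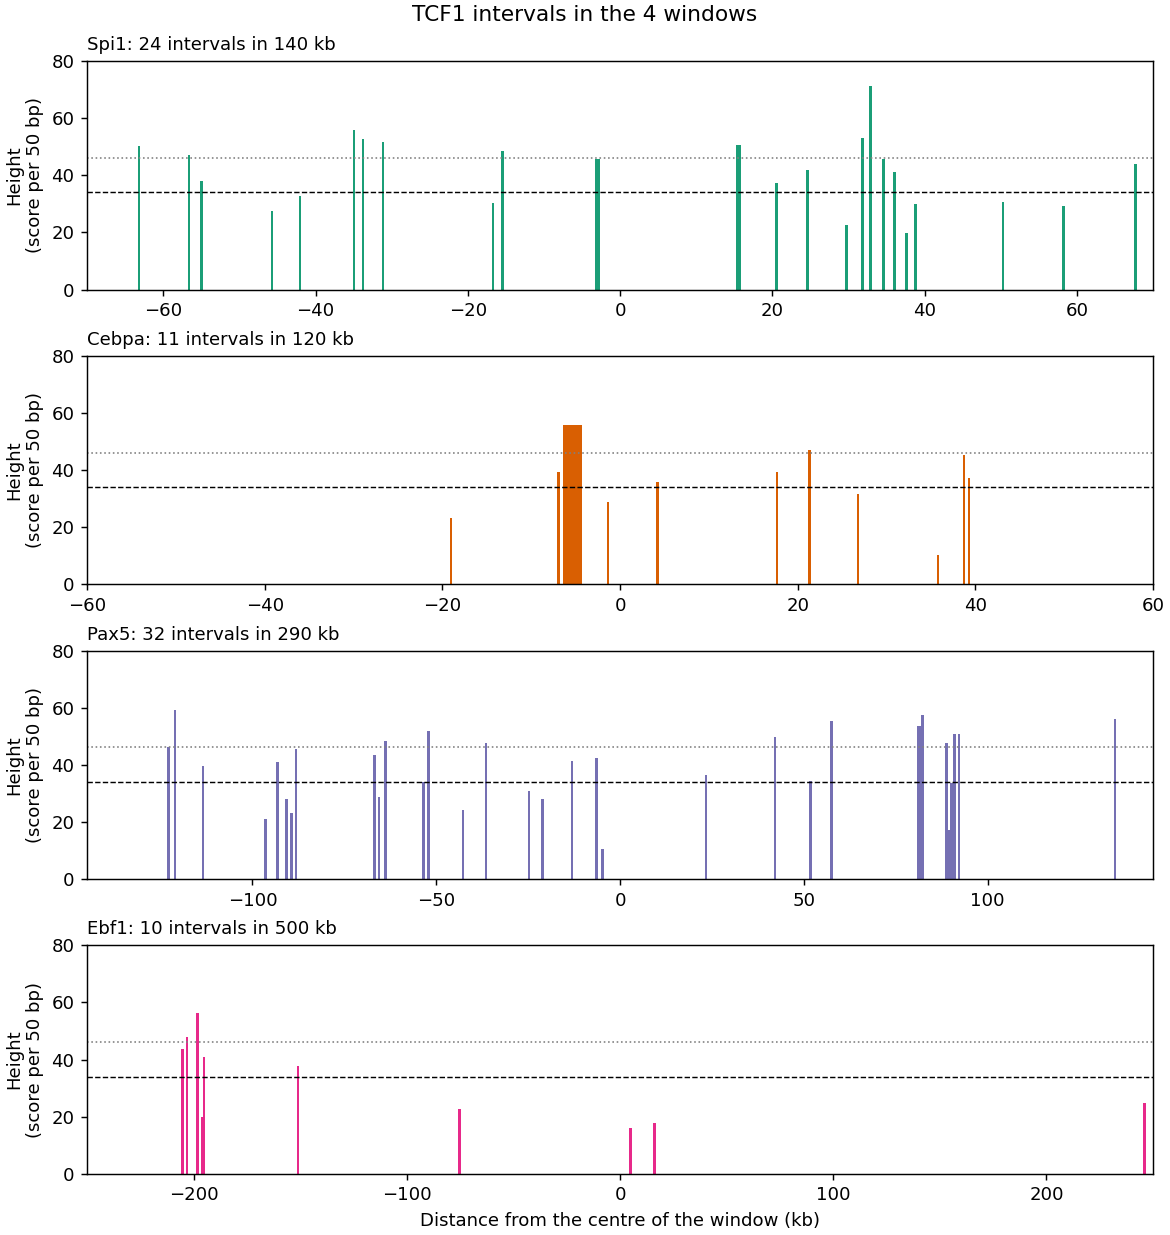
TCF1 intervals in the 4 windows. The x axis is the distance from the centre of the window in kb and the y axis the height (score per 50 bp), each bar is 1 interval at its width (narrow bars are widened to be visible), and the dashed and dotted lines mark the median (34.0) and the upper quartile (46.1) of height in the whole list. Cebpa has 1 broad bar of 2100 bp, and the 5 intervals at the left of the Ebf1 window are followed by long empty stretches.

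Set against windows of its own chromosome, Spi1 ranked high in interval count, whereas Ebf1 lay below the median but within the quartiles. Each locus was compared with all windows of its size tiled along the same chromosome that did not touch it. On chromosome 2, 1218 of 1273 windows held fewer intervals than the 24 of Spi1, 11 held as many and 44 held more, and the median window held 4. On chromosome 4, 449 of 523 windows held fewer than the 32 of Pax5 and 69 held more, with a median of 8. On chromosome 7, 1057 of 1242 windows held fewer than the 11 of Cebpa and 169 held more, with a median of 3. On chromosome 11, by contrast, 59 of 234 windows held fewer than the 10 of Ebf1 and 169 held more, with a median of 22.5 and quartiles at 9.25 and 45.8. Relative to the mean density of the chromosome, which windows with many intervals raise above the median, the locus density was 3.96 times for Spi1 (2.53 to 5.89), 2.18 times for Pax5 (1.49 to 3.07), 1.89 times for Cebpa (0.943 to 3.38) and 0.315 times for Ebf1 (0.151 to 0.579). These ranges cover the counting error of the locus only and treat its intervals as independent, so they are too narrow. The Cebpa range includes 1. The windows were not matched for genes or mappable sequence, whose part in these ranks was not tested.

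**Figure D2:**
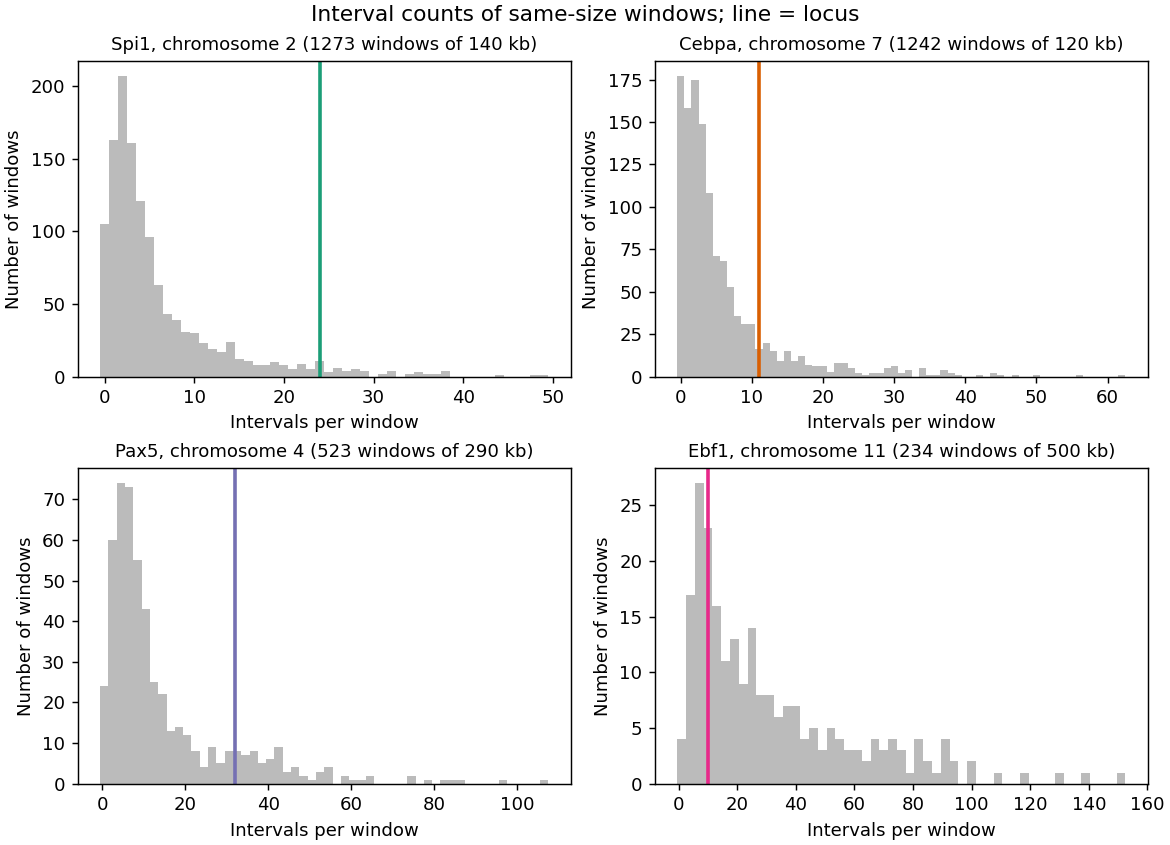
Number of intervals per window (x axis) for all same-size windows of the chromosome of each locus, with the number of windows on the y axis. The coloured line is the locus, which lies in the right tail for Spi1 (24 intervals, 44 of 1273 windows higher) and left of the median for Ebf1 (10 intervals, median window 22.5).

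The regions next to the loci were not uniformly poorer. The windows directly before and after Cebpa held 17 and 19 intervals, more than the 11 of Cebpa itself. At Spi1, the window before held 6 and the window after held 21, so the high count extended to one side only. Pax5, with 32, had 23 before and 22 after it. Ebf1, with 10, had 7 and 5, so the whole 1500 kb stretch around Ebf1 held few intervals. The nearest intervals outside the windows lay 88.6 kb before and 8.35 kb after Spi1, 8.50 kb before and 0.200 kb after Cebpa, 27.7 kb before and 146 kb after Pax5, and 23.0 kb before and 133 kb after Ebf1. The windows for Cebpa and Spi1 thus have close neighbours on at least 1 side that the fixed borders leave out.

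In gene order, as RefSeq lists protein-coding genes for GRCm38, Spi1 lies between Slc39a13 and Mybpc3, with Psmc3 and Madd next. Cebpa lies between Gm45095 and Slc7a10, with Cebpg and Lrp3 next, Pax5 between Melk and Zcchc7, and Ebf1 between Rnf145 and Clint1. A window may reach into these neighbours, and which gene, exon or intron an interval lies in was not analysed here for want of an mm9 annotation.

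Spi1 carried the single highest interval of the 4 loci. It lay at chr2:90972751-90973150, was 400 bp wide and had a score of 569.75, and its height, the score per 50 bp of width, was 71.2. Only 2173 of the 104683 listed intervals were higher. It belonged to a group of 10 intervals from 90955201 to 90978900, each at most 10 kb from the next, which held 49.6% of the summed score of the window in 23.7 kb. The group opened with the interval at 90955201-90955850, which had the highest score at the locus (656.25), a width of 650 bp and a height of 50.5. The interval at 90971651-90971950 had a height of 53.1. The group also held the lowest interval of the locus, at 90977501-90977800 with a height of 19.9, so high and low intervals stood side by side. A second group of 8 lay at the start of the window, from 90876701 to 90908950, and its median height was 48.6 against 41.5 for the group of 10. It included the intervals at 90904901-90905250 (height 55.7), 90906101-90906350 (52.8) and 90908801-90908950 (51.8). An interval as wide as the 650 bp one that opened the group of 10, at 90936751-90937400 (score 594, height 45.7), stood alone between the groups. The longest stretch of the Spi1 window without an interval was 17.8 kb, from 90937401 to 90955200. The median over the other windows of that size was 67.2 kb. Those windows held a median of 4 intervals against 24 at Spi1, and more intervals leave shorter gaps, so this largely restates the count.

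Cebpa was marked by 1 very wide interval. At chr7:35903601-35905700 it spanned 2100 bp, 5.25 times the next widest of the locus and 10.5 times the median width of the list (200 bp). Only 15 of the 104683 intervals were at least this wide, itself included, and it was the widest of the 7252 on chromosome 7. Its score of 2339 ranked 79 in the whole list. Its height of 55.7 was the highest of the locus and lay at the 88.7 percentile of the whole list, with 11827 intervals higher. It was close to the median height of 54.6 over the 1014 intervals of 1 kb or more. Beside intervals of that width its height was thus ordinary, and in the whole list it stood out more by width than by height. Intervals of at least 1 kb made up 0.969% of the list, and it was the only 1 among the 77 at the 4 loci. It held 60.0% of the summed score of the Cebpa window and 2100 of its 4400 covered bases. Without it the covered share of the window fell from 3.67% to 1.92%, where the median window of that size had 0.708%. An interval of 400 bp with a height of 39.3 lay 350 bp before it, at 35902851-35903250.

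The other Cebpa intervals were 100 to 400 bp wide, with heights from 10.3 to 47.1. A group of 6 lay further along, from 35927601 to 35949400. It held the second-highest interval of the locus, at 35931151-35931500 with a height of 47.1, and those at 35927601-35927750 (39.2) and 35948651-35948750 (45.3). The lowest, at 35945651-35945900, had a height of 10.3 and lay in the same group. The first 40.9 kb of the window held none.

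**Figure D3:**
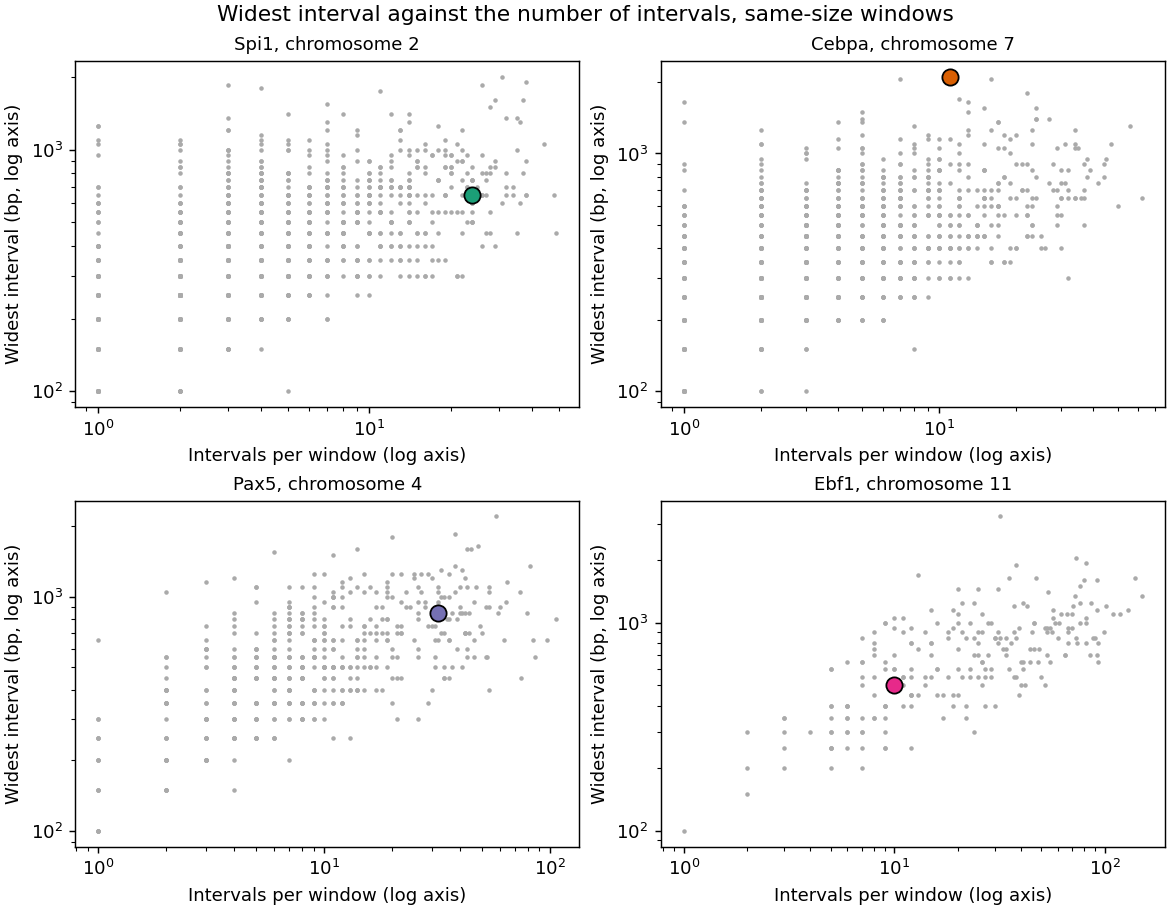
Width of the widest interval (y axis, bp, log axis) against the number of intervals (x axis, log axis) for each same-size window of the chromosome that holds at least 1 interval (grey) and for the locus (coloured). No other window of chromosome 7 reaches the 2100 bp of Cebpa, whereas 281 of 1273 windows match or exceed the 650 bp of Spi1, 110 of 523 the 850 bp of Pax5 and 173 of 234 the 500 bp of Ebf1.

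At Ebf1 the intervals gathered at one end of the window. Of the 10, 5 lay within 10.2 kb, from chr11:44424701 to 44434900, and held 73.6% of the summed score. The highest, at 44431601-44432100, was 500 bp wide with a score of 563 and a height of 56.3. Before it stood intervals at 44424701-44424950 (height 43.6) and 44426651-44427000 (47.8), and after it those at 44433951-44434150 (19.9) and 44434651-44434900 (41.0). The remaining 5 were each more than 10 kb from any other. Their heights were 37.7 at 44478751-44479000, 22.7 at 44554601-44554850, 16.1 at 44634851-44635100, 17.9 at 44646001-44646200 and 24.8 at 44875801-44875900. Of the group, only the lowest interval (19.9) fell within this range, and its other members had heights of 41.0 or more. Between the last pair, 229.6 kb had no listed interval, or 45.9% of the window. The median of the longest empty stretch over the 234 other windows was 99.6 kb, and that of Ebf1 ranked at their 90.2 percentile. Those windows held a median of 22.5 intervals, and the lower count of Ebf1 by itself tends to lengthen empty stretches. Of 50 bins of 10 kb in the window, 43 were empty. An empty stretch shows only that nothing was listed there, since the threshold and depth of the list are unknown.

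Pax5 had the most intervals, and they were spread over the window in 9 groups. The fullest group held 7 intervals in 11.5 kb, from chr4:44715901 to 44727400, and 39.6% of the summed score. Within it a pair stood 150 bp apart. The first of the pair, at 44715901-44716750, was the widest (850 bp) and had the highest score (913.75) and a height of 53.8. The second, at 44716901-44717500, had a height of 57.3. Of these 7 intervals, 5 were above the upper quartile of height, and the lowest reached 17.1. The highest Pax5 interval lay far from this group, at 44513751-44514000, with a width of 250 bp and a height of 59.1. After it and the second of the pair came those at 44769401-44769900 (55.9) and 44692351-44692500 (55.2). The lowest, at 44630101-44630250, had a height of 10.3. The longest empty stretch, 42.0 kb from 44727401 to 44769400, began where the fullest group ended.

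Taken 1 locus at a time, median heights had wide ranges that did not set them apart from the list, while the pooled median was higher. The median height was 42.9 at Spi1 (95% order-statistic interval 30.6 to 50.2), 41.9 at Pax5 (33.8 to 48.2), 37.3 at Cebpa (23.4 to 47.1) and 31.2 at Ebf1 (17.9 to 47.8). Each of these ranges included the median of the list, 34.0, and they overlapped one another, so the order of the loci by height is not resolved. Over the 77 together the median was 41.0, higher than that of the list, with no range computed. Spi1 and Pax5 supplied 24 and 32 of the 77. The chromosomes of the loci also had medians above 34.0, at 35.9 for chromosome 2, 34.9 for 4, 36.35 for 7 and 37.6 for 11. The contrast with them is thus smaller, and the range of each locus included the median of its chromosome. Above the list median were 16 of 24 intervals at Spi1, 21 of 32 at Pax5, 7 of 11 at Cebpa and 5 of 10 at Ebf1. Among the same-size windows of the chromosome that held an interval, the median height ranked at the 91.7 percentile for Pax5 (515 windows), 85.6 for Spi1 (1168), 65.0 for Cebpa (1065) and 33.8 for Ebf1 (234), so Pax5 and Spi1 lay in the upper part of their chromosomes. Many of these windows hold few intervals, and their medians rest on few values. They were not matched for interval count, so where Pax5 and Spi1 rank among windows with as many intervals was not tested. In the central 50% of the window the Ebf1 median fell to 17.9, over 3 intervals. By score in place of height, the Cebpa median moved from 1.10 to 0.877 times that of the list and the Ebf1 median from 0.918 to 1.13 times, which turns both directions. Above the upper quartile of height in the list, where 25.0% of all intervals lie, were 9 of 24 intervals at Spi1, 13 of 32 at Pax5, 2 of 11 at Cebpa and 2 of 10 at Ebf1. In all this was 26 of 77, or 33.8% (Clopper-Pearson interval 23.4 to 45.4%), a range that includes the background. Over all intervals of the chromosome that share was 27.2% for chromosome 2 (Spi1), 25.7% for 4 (Pax5), 29.4% for 7 (Cebpa) and 29.2% for 11 (Ebf1). In the upper 10% by score, with a background of 9.99%, were 3 intervals at Spi1, 5 at Pax5, 1 at Cebpa and 1 at Ebf1, or 13.0% of the 77 (6.41 to 22.6%).

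Widths were close to those of the list apart from the wide Cebpa interval. The median was 250 bp at Spi1, Cebpa and Ebf1 and 200 bp at Pax5, against 200 bp in the list, with ranges of 100 to 650 bp, 100 to 2100 bp, 100 to 500 bp and 100 to 850 bp. Intervals covered 4.57% of the Spi1 window, 3.67% of Cebpa, 2.93% of Pax5 and 0.520% of Ebf1. The median window of the same size and chromosome had 0.679%, 0.708%, 0.793% and 1.16% in the same order. With widths close to those of the list, these shares largely restate the counts, apart from the wide Cebpa interval. Wider intervals tended to be higher, with a Spearman rho between width and height of 0.47 over the 77, beside 0.40 over the whole list. This is a correlation across sites of 1 library that share its threshold.

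**Figure D4:**
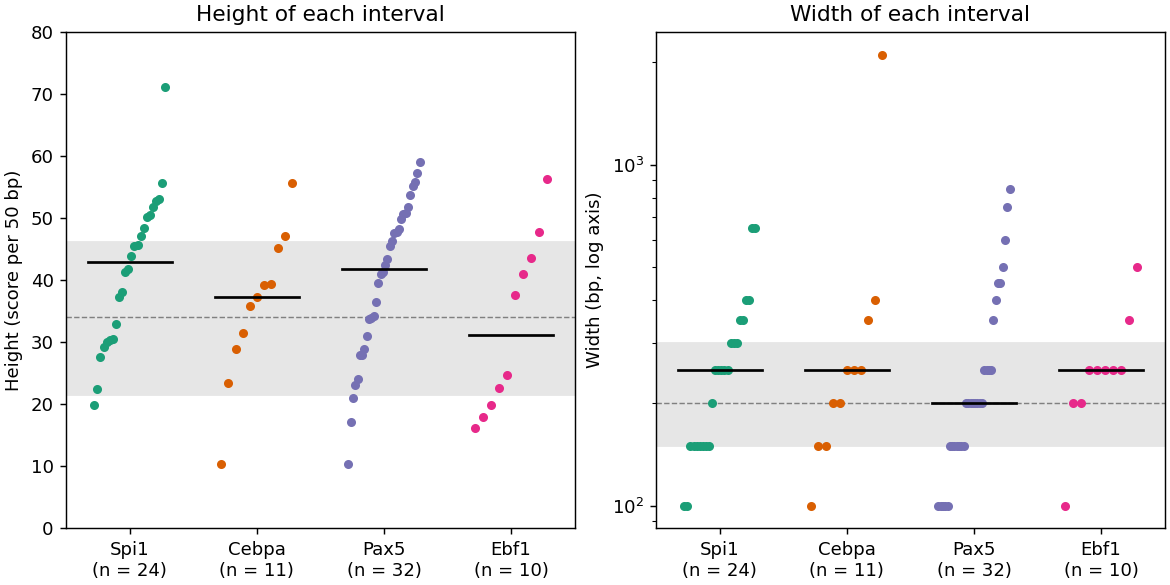
Height (left, score per 50 bp) and width (right, bp, log axis) of each of the 77 intervals, sorted within each locus. Black lines are locus medians, the grey band spans the quartiles of the whole list and the dashed line is its median. The loci overlap in height, and 1 Cebpa interval of 2100 bp lies far above the rest in width.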

How the data were processed

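Chromatin bound by TCF1 was profiled in 1 library. Per the labels' protocols, chromatin from 1000000 sorted cells was fixed in 1% formaldehyde and sheared by sonication. Library DNA was amplified for 17 cycles and selected at 300 to 500 bp. The authors deposited intervals with a score each, on mm9 according to the submitters' processing notes. The aligner, caller and threshold, any use of the input and the meaning of the deposited score were not given in the sources used here. Scores moved in steps of 0.25 (100% of them, relative tolerance 1e-06). Starts lay on a 50 bp grid with ends 1 bp short of it, so ends were read as inclusive, and positions are counted from 1.

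Height was computed as score / width × 50 bp. An interval belonged to a locus if it overlapped the window. Same-size windows were tiled from the first base of the chromosome within the span of its intervals, leaving out those that touched the locus. Ranks among windows are descriptions, with no test. At loci with more than 10 intervals, those named are the 5 highest, the widest, the highest by score and the lowest, and otherwise all. Windows, members and words were chosen with earlier results of these data known. The computations were tested on simulated data with Python 3.11.15, numpy 2.4.6, pandas 2.3.3 and scipy 1.17.1. Alternatives were score limits, joining within 1 kb, the central 50% of each window and other sets of windows.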

Additional observations from a re-analysis of the deposited data

How the results depend on the processing

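No paired analysis was possible because a single ChIP library was listed, and no replicate could be left out. Of 120 alternative values, 102 stayed close to the reported one, meaning within its counting interval or, for counts, covered shares and empty stretches, within 1.5 times. For percentiles, medians and shares that interval is wide, so values counted as close could still move by more than 1.5 times. Score in place of height also counted as close, though the median relative to the list turned direction at Cebpa (1.10 to 0.877) and Ebf1 (0.918 to 1.13). The median height of Ebf1 went from 31.2 to 17.9 in the central 50%. The share above the upper quartile of height went from 18.2% at Cebpa to 50% in the upper 50% by score. By the quartile of the chromosome it was 9.09%. At Ebf1 the share went from 20% to 40% and 10% in the same settings. Since score rises with both height and width, a limit on score tends to raise this share at any locus. The same share over all intervals in the upper 50% by score is not given here. Added after the data were seen were 16, namely leaving out the widest or highest interval, joining for height and the central 50% for empty stretches. Score limits and smaller windows lower counts by construction. In the upper 50% by score the counts were 4 at Cebpa, 20 at Pax5 and 5 at Ebf1, and in the upper 10% they were 3 at Spi1, 1 at Cebpa, 5 at Pax5 and 1 at Ebf1. In the central 50% they were 13 at Spi1, 16 at Pax5 and 3 at Ebf1. The percentile of the count stayed at 94.6 to 97.9 for Spi1 (reported settings 96.1), 76.6 to 90.8 for Cebpa (85.7), 86.1 to 92.7 for Pax5 (86.3) and 14.4 to 36.1 for Ebf1 (26.5). The covered share of Cebpa was 6.33% in the central 50% and 1.92% without its widest interval, and that of Ebf1 was 0.320% in the upper 50% by score and 0.280% in the central 50%. None of the Ebf1 intervals in the central 50% passed the upper quartile of height (0%). The longest empty stretch became 13.3 kb at Cebpa and 108.8 kb at Ebf1 in the central 50%, and 401 kb at Ebf1 in the upper 50% by score. The unknown depth limits all statements on low or missing intervals.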
